A study of Mus musculus with 9 samples.

Results

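The genes described are the 5 NF-κB subunits of the mouse (Nfkb1, Nfkb2, Rel, Rela, and Relb) and 5 genes that restrain or modulate NF-κB (Nfkbia, Nfkbie, Nfkbiz, Tnfaip3, and Bcl3). They were taken by name, 10 of the 24341 genes in the deposited table, and all 10 had a value in every mouse. Livers of wild-type C57BL/6 mice were collected 48 hours after FGK45, an agonist CD40 antibody (anti-CD40, 3 mice, numbered 2, 5, and 9), or after PBS (control, 6 mice, numbered 3, 4, 7, 8, 11, and 12). The methods describe sex-matched young adult mice and exclude anti-CD40 mice whose blood B cells did not fall after treatment, so the treated group stands for mice that responded. The labels name no dose and no batch for these libraries. Each mouse gave 1 library of bulk liver RNA, read from the 3′ end of transcripts.

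NF-κB is a family of dimeric transcription factors that rest in the cytoplasm, held by inhibitors of the IκB family, until a receptor signal frees them. In the canonical route a kinase complex (IKK) marks IκBα for destruction and p65:p50 dimers enter the nucleus, where they switch on inflammatory genes and also their own inhibitors. In the non-canonical route, which CD40 and the lymphotoxin-β receptor are known to use, the kinase NIK drives processing of the p100 precursor to p52, the partner of RelB. In liver the pathway is known both for inflammatory gene expression in Kupffer cells and for protecting hepatocytes from death induced by TNF.

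The 30-base stretches that follow are shown because NF-κB genes are textbook targets of NF-κB itself, and they show where the consensus lies near the start sites of members, whether or not these rose. RefSeq promoters of GRCm38.p6 (the sequence of mm10; 250 bases before to 50 after each annotated start) were listed for 7 members, Nfkb2, Rel, Rela, Nfkbia, Nfkbie, Tnfaip3, and Bcl3. The 10-base kappa-B consensus was searched on both strands. It was present in a promoter of 6 of these 7 genes and in 9.55% of the 27025 genes with a promoter in the table (12.3% of the 10425 of them that were tested for expression). Matches are in capitals, 5′ to 3′ on the strand of the gene, with overlapping matches joined.
Nfkb2, chr19:46304688-46304717 (+): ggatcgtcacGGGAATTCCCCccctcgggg
Nfkb2, chr19:46304716-46304745 (+): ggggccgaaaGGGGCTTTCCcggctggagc
Nfkb2, chr19:46305449-46305478 (+): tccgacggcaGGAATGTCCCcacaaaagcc
Nfkb2, chr19:46305695-46305724 (+): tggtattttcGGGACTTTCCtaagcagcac
Rel, chr11:23771042-23771071 (-): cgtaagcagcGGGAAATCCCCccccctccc
Nfkbia, chr12:55492657-55492686 (-): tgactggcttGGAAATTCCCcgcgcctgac
Nfkbie, chr17:45555584-45555613 (+): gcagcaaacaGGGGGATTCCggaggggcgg
Tnfaip3, chr10:19015516-19015545 (-): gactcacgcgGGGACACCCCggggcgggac
Tnfaip3, chr10:19015403-19015432 (-): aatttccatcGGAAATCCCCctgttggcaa
Bcl3, chr7:19822734-19822763 (-): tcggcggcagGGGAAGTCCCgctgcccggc
Nfkb2 held the most matches, 4 places spread over its 3 listed promoters. The match of Nfkbia began 29 bases before its annotated start, those of Nfkbie and Rel 106 and 92 bases before it, and that of Bcl3 lay just after the start. The window of Rela held no full match to the consensus. A match is a stretch of letters, not a measured binding site.

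The measure was FPKM, made by the authors: fragments assigned to a gene, divided by transcript length and scaled between libraries. For genes detected in every mouse, the median ratio to their geometric mean ran from 1.0038 to 1.0097 across mice. By that measure the deposited values were already level between mice. Reads from the 3′ end do not grow with transcript length, so FPKM values of different genes were not set against each other. The length cancels in the change of a single gene, except for the value added before taking logs, which matters for low genes. Sums of FPKM over marker genes were compared only between mice, and they give more weight to genes of short annotated length. Changes are log2 fold changes of FPKM + 0.1, anti-CD40 over control, each given ± its standard error, and adjusted p is from limma over all 13807 genes whose mean FPKM reached 0.1. All 10 members passed that minimum. Between 14684 and 15545 genes were above the floor of 0.01 in each mouse, and relative depth, from the steps of low values, ran from 0.870 to 1.13, while absolute depth is unknown. Beside limma, each member was tested by exact permutation of the mice (2-sided, 84 splits), for which 0.0238 is the smallest possible p.

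Of the 10 members, 8 rose after anti-CD40 and 0 fell, and 6 of the 8 rose at least 2-fold. Among all genes tested, 23.5% rose, 21.7% fell, and 13.7% rose at least 2-fold, so the response of the whole liver is the background for these counts. The values of the anti-CD40 and control mice did not overlap in the same 8 members, all with anti-CD40 higher, against 22.7% of all genes tested (19.6% had anti-CD40 lower, and 42.4% did not overlap in either direction). The median log2 fold change was 1.54 over the members and 0.0056 over all genes. With the Saa1, Saa2, and Saa3 rows removed and library totals made equal, the median of all genes moved to 0.35. Then 5592 genes were higher and 1649 lower in place of 3240 and 2990, and 10 members rose. With median of ratios scaling the median was 0.0086, with 3258 genes higher and 2968 lower, and 8 members rose. In bulk tissue, more cells of a type and more RNA per cell cannot be told apart.

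**Figure D1:**
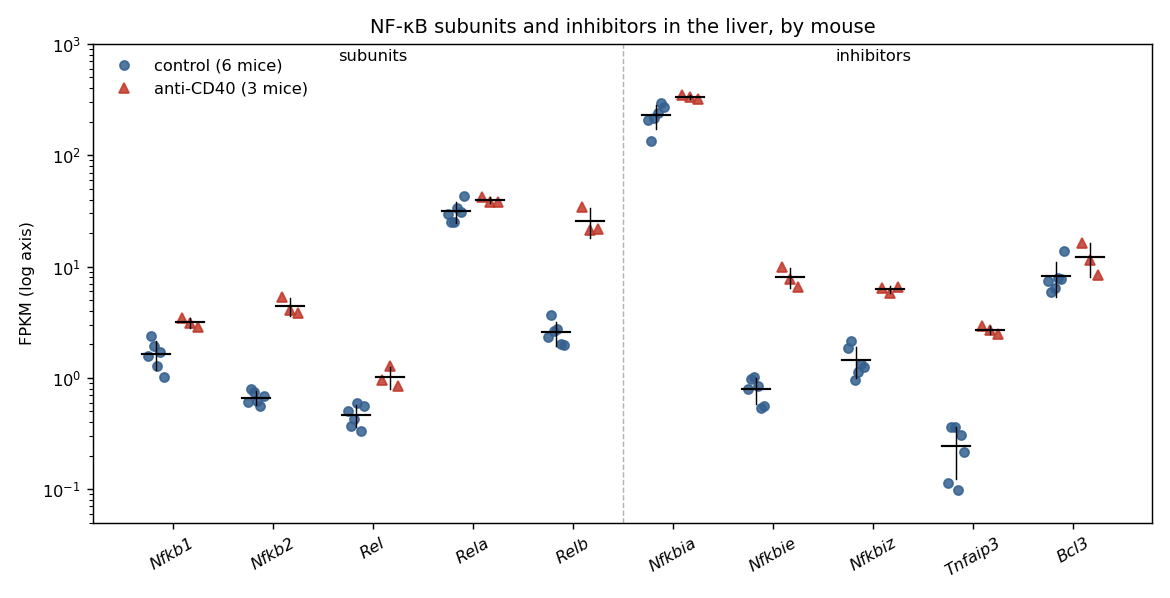
FPKM of each member in each mouse on a log axis (circles, 6 control mice; triangles, 3 anti-CD40 mice; horizontal bars, means; vertical bars, ± 1 SD), subunits to the left of the dashed line and inhibitors to the right. The triangles stand above all circles in 8 genes and among them in Rela and Bcl3.

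Relb, which encodes the non-canonical subunit RelB, had the highest log2 fold change among the members with 0.1 added to FPKM, whereas with 0.01 added Tnfaip3 (3.58) and Nfkbie (3.35) stood above it (3.32). It lies on chromosome 7 of mm10 (chr7:19606222-19629438). In mice 2, 5, and 9 of the anti-CD40 group FPKM was 34.7, 21.3, and 21.7, and it ran from 1.97 to 3.64 in control mice with a median of 2.50. The lowest treated mouse was thus far above the highest control, and mouse 2 was the highest of the treated mice. Control mice averaged 2.56 ± 0.618 (SD, n = 6) and treated mice 25.9 ± 7.61 (SD, n = 3) FPKM. Relb thus rose by 3.28 ± 0.22 on the log2 scale (adjusted p = 2.38e-06).

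Nfkb2 encodes p100, the precursor of p52 and the partner of RelB. Its FPKM was 5.34, 4.05, and 3.85 in mice 2, 5, and 9, against 0.554 to 0.787 in control mice (median 0.647). The control mice were closer together in Nfkb2 than in any other member, with an SD of 13.6% of their mean. Nfkb2 rose by 2.55 ± 0.16, from a mean of 0.665 ± 0.0902 (SD, n = 6) to 4.41 ± 0.810 (SD, n = 3) FPKM (limma adjusted p = 1.74e-06). The gene runs from chr19:46304320 to 46312385 on the plus strand in GENCODE vM21, and its last 299 bases overlap Psd on the minus strand. Psd, which encodes an exchange factor for the small GTPase ARF6, shared its position in the deposited table and also rose, with FPKM of 2.68, 3.40, and 2.56 in mice 2, 5, and 9 and 0.340 to 0.930 in control mice (log2 fold change 2.28, adjusted p = 3.90e-05). Whether strand was used in the authors' estimate is not given in the sources used here, so reads from the shared stretch cannot be assigned to either gene. That stretch is the 3′ end of both genes, where these libraries were read, so its share of either FPKM is unknown.

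The canonical precursor Nfkb1, which encodes p105 and p50, rose less. It lies at chr3:135584655-135691547, where Gm43430 overlaps it on the same strand in GENCODE vM21, so strand could not separate their reads. FPKM of Nfkb1 was 3.48, 3.11, and 2.85 in mice 2, 5, and 9 and 1.02 to 2.38 in control mice (median 1.64). All treated mice were above all control mice, but the gap between 2.85 and 2.38 in control mouse 4 was small beside the spread of the controls. From 1.64 ± 0.479 (SD, n = 6) the mean went to 3.15 ± 0.314 (SD, n = 3) FPKM, a rise of 0.94 ± 0.23 (limma adjusted p = 0.00729). Rel encodes c-Rel, a subunit best known in lymphocytes and other leukocytes. It lies at chr11:23741729-23770970 in the deposited table. GENCODE vM21 gives chr11:23736847-23770970 on the minus strand, so the deposited position leaves out part of the annotated 3′ end. Whether reads from that part were counted is unknown. FPKM of Rel was 0.948, 1.29, and 0.844 in mice 2, 5, and 9 and 0.333 to 0.591 in control mice (median 0.466). Mouse 5, not mouse 2, was highest, and the groups did not overlap. Mean FPKM of Rel rose 2.22-fold, from 0.464 ± 0.105 (SD, n = 6) to 1.03 ± 0.233 (SD, n = 3), with a 95% interval of the log2 fold change from 0.54 to 1.47 (limma adjusted p = 0.00295). With quantile normalization the log2 fold change was 0.61 (adjusted p = 0.0521).

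Rela, which encodes p65, the activating subunit of the canonical dimer, did not pass the test. It lies at chr19:5637490-5648130. Its FPKM was 42.2, 37.8, and 38.4 in mice 2, 5, and 9 and 25.3 to 42.8 in control mice (median 30.2). The groups overlapped through control mouse 12 alone, which at 42.8 stood above every treated mouse, whereas the next control was at 33.8. Control mice averaged 31.3 ± 6.52 (SD, n = 6) and treated mice 39.5 ± 2.40 (SD, n = 3) FPKM. The change was 0.36 ± 0.16 (adjusted p = 0.102), with a 95% interval from -0.0073 to 0.72, so a rise of up to 0.72 is within the error. Without control mouse 12 it was 0.45 (adjusted p = 0.0153), and it also passed with array weights (0.37, adjusted p = 0.0279), with quantile normalization (0.60, adjusted p = 0.00703), and with the 3 Saa genes left out (0.72, adjusted p = 0.00173).

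**Figure D2:**
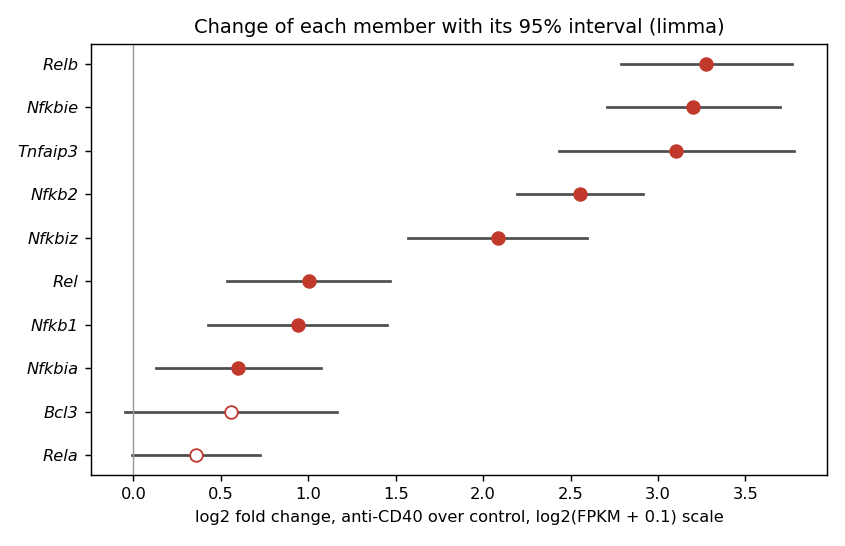
Log2 fold change of each member (points; filled where the limma adjusted p was under 0.05) with its 95% interval (lines). Relb, Nfkbie, and Tnfaip3 lie above 3 and the intervals of Bcl3 and Rela cross 0.

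Nfkbie encodes IκBε, an IκB that holds dimers in the cytoplasm and is itself induced by NF-κB. Its FPKM was 9.82, 7.71, and 6.54 in mice 2, 5, and 9 and 0.538 to 1.02 in control mice (median 0.819), at chr17:45555700-45563168. No control mouse came near the treated range. Nfkbie rose by 3.20 ± 0.22, from 0.791 ± 0.205 (SD, n = 6) to 8.02 ± 1.66 (SD, n = 3) FPKM (limma adjusted p = 2.83e-06).

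Tnfaip3 encodes A20, a ubiquitin-editing enzyme that ends signaling from the TNF receptor and Toll-like receptors. It lies at chr10:19000910-19015410. Its FPKM was 2.93, 2.68, and 2.48 in mice 2, 5, and 9 and 0.0992 to 0.363 in control mice (median 0.261). The treated mice were close together, with an SD of 8.48% of their mean, and the control mice were the most spread of any member, with an SD of 48.9%. Tnfaip3 rose by 3.10 ± 0.30, from 0.243 ± 0.119 (SD, n = 6) to 2.70 ± 0.229 (SD, n = 3) FPKM (limma adjusted p = 2.18e-05). The control values are near the 0.1 added before taking logs, and the change was 1.58 when 1 was added and 3.58 when 0.01 was added. Adding 1 also lowered the change of Nfkbie to 2.32, of Nfkb2 to 1.69, of Nfkbiz to 1.58, and of Rel to 0.47, all still past the threshold.

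Nfkbiz encodes IκBζ, a nuclear IκB that works with p50 on a subset of inflammatory genes such as Lcn2. At chr16:55811377-55838641, it had an FPKM of 6.36, 5.75, and 6.61 in mice 2, 5, and 9 and of 0.948 to 2.16 in control mice (median 1.30). Here mouse 9 was highest by a small margin, and the groups were well apart. Nfkbiz rose by 2.08 ± 0.23, from 1.45 ± 0.458 (SD, n = 6) to 6.24 ± 0.443 (SD, n = 3) FPKM (limma adjusted p = 5.03e-05).

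Nfkbia, which encodes IκBα, the inhibitor that is destroyed and resynthesized in canonical signaling, rose by a smaller amount. Its FPKM was 349, 337, and 323 in mice 2, 5, and 9, the tightest treated group of any member (SD of 3.86% of the mean), and 136 to 296 in control mice (median 230). The treated mice were all above the highest control, mouse 11, while control mouse 4 was lowest at 136. Nfkbia rose by 0.60 ± 0.21, from 228 ± 55.6 (SD, n = 6) to 336 ± 13.0 (SD, n = 3) FPKM (limma adjusted p = 0.0406). This call was lost in 8 of 20 alternatives, among them leaving out a single treated mouse, whether 2, 5, or 9 (adjusted p = 0.119, 0.0993, and 0.0857), or control mouse 3, 7, or 8 (adjusted p = 0.0705, 0.0653, and 0.0512). The gene itself lies at chr12:55489410-55492647 in GENCODE vM21, but the deposited table gives it a wider position shared with Psma6, Ppp2r3c, 1110008L16Rik, and Mir1198. The proteasome gene Psma6 stood at 0.00039 (adjusted p = 0.998) and Ppp2r3c at -0.13 (adjusted p = 0.603), whereas 1110008L16Rik fell (-1.20, adjusted p = 6.08e-04) and Mir1198 was at the floor in every mouse.

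Bcl3 encodes a nuclear IκB that can both repress and activate genes together with p50 or p52. It lies at chr7:19808462-19822755, and its FPKM was 16.4, 11.4, and 8.40 in mice 2, 5, and 9 and 5.86 to 13.9 in control mice (median 7.61). Mouse 2 was above every control, mice 5 and 9 were below control mouse 12, and the other controls were all below mouse 9. Antisense genes Gm16174 and Gm16175 overlap it, and reads of the pair cannot be told apart where strand was not used. Control mice averaged 8.22 ± 2.88 (SD, n = 6) and treated mice 12.1 ± 4.04 (SD, n = 3) FPKM. The change was 0.56 ± 0.27 (adjusted p = 0.123), with a 95% interval from -0.051 to 1.16. Without control mouse 12 it was 0.72 (adjusted p = 0.0182). With the 3 Saa genes left out it was 0.92 (adjusted p = 0.0117), but that setting moved the median of all genes to 0.35. With median of ratios scaling it was 0.56 (adjusted p = 0.122).

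The exact permutation p was 0.0238 for each of the 8 members that rose, 0.0952 for Rela, and 0.143 for Bcl3. Steps between low FPKM values gave whole reads for 4 members, the smallest numbers that matched within 0.08 of a read in mice with up to 100 reads. Larger numbers, as in the treated mice for Nfkb2, Nfkbie, and Tnfaip3, were only rounded. By these, Nfkb2 rested on 207 to 328 reads in each treated mouse and 29 to 45 in each control. Nfkbie rested on 275 to 471 and 22 to 46 reads. Tnfaip3 had 199 to 269 reads in treated mice but 9, 31, 31, 7, 24, and 16 in control mice 3, 4, 7, 8, 11, and 12, so its control level carries the larger counting error. Rel rested on 39 to 64 and 15 to 24 reads. For the other 6 members no such numbers were found, and their depth is unknown.

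Across the members, anti-CD40 mouse 2 was the highest treated mouse in 8 of 10 and by the widest margin in Relb and Bcl3. Control mice did not keep 1 order. Control mouse 4 was the highest control in 5 members (Nfkb1, Nfkb2, Relb, Nfkbiz, and Tnfaip3) and the lowest in 3 (Rela, Nfkbia, and Bcl3). Control mouse 12 was the reverse for part of the list, highest in Rela and Bcl3 and lowest in Nfkb1 and Relb.

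**Figure D3:**
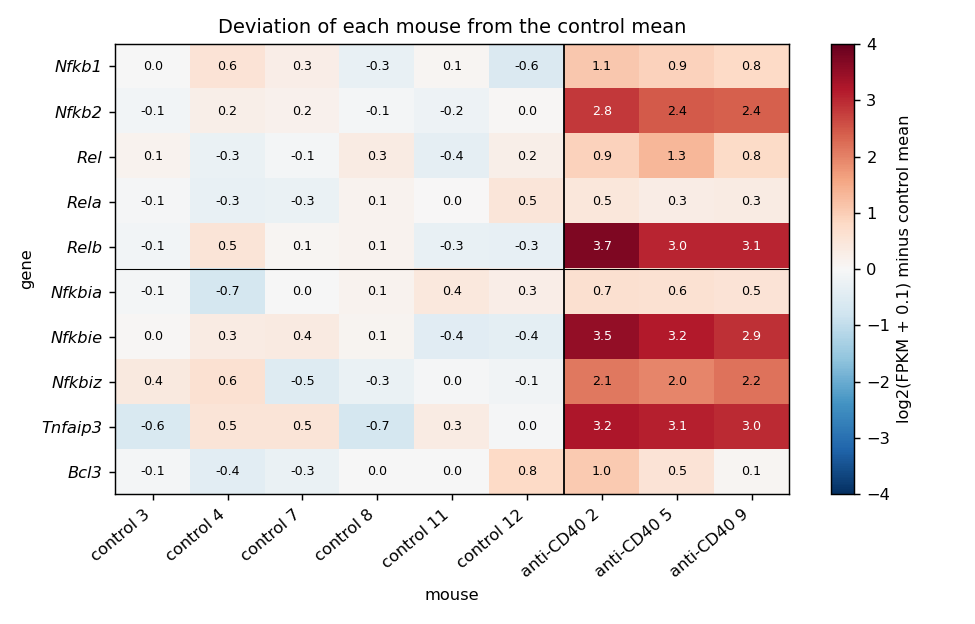
Log2(FPKM + 0.1) of each member (rows) in each mouse (columns) minus the mean of the 6 control mice; red is higher and blue lower, with the value in each cell. The 3 anti-CD40 columns reach 3.7 in Relb, and control mouse 4 is -0.7 in Nfkbia and 0.5 in Relb.

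Whether members differed in response was tested directly, by taking in each mouse the log2 ratio of 1 member to another and testing it with limma among the ratios of all genes to the same gene. There were 9 such ratios, and the scale of a library cancels in them except for the pseudocount. The non-canonical subunits gained on Rela. The ratio of Relb to Rela rose by a log2 of 2.92 ± 0.31 (adjusted p = 3.47e-05) and that of Nfkb2 to Rela by 2.20 ± 0.25 (adjusted p = 5.81e-05), with no overlap between the groups. Among all genes, 11.7% had a ratio to Rela that rose and 32% one that fell. The ratio of Nfkb2 to Nfkb1, the p52 precursor to the p50 precursor, rose by 1.62 ± 0.26 (adjusted p = 3.47e-04), while 7.03% of genes gained on Nfkb1 and 59.7% lost. The groups did not overlap in this ratio. The ratios with Nfkb2 include reads from the stretch it shares with Psd, which cannot be assigned. With 1 added in place of 0.1 the changes relative to Rela were 2.55 for Relb and 1.35 for Nfkb2, and that of Nfkb2 relative to Nfkb1 was 1.03, each still past the threshold.

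A difference between Nfkb1 and Rela was not shown, with a ratio change of 0.58 (95% interval from -0.20 to 1.37, adjusted p = 0.211), though it passed with array weights (0.53, adjusted p = 0.0404). For Rel over Rela it was 0.64 (adjusted p = 0.0496), a call lost in 15 of 19 alternatives, among them leaving out any 1 of the 9 mice (adjusted p from 0.0521 to 0.235). Among the inhibitors, Nfkbie, Tnfaip3, and Nfkbiz each gained on Nfkbia, 6.07-fold (adjusted p = 1.77e-04), 5.68-fold (adjusted p = 4.44e-04), and 2.80-fold (adjusted p = 0.00749). These sizes depend on the value added: with 1 in place of 0.1 the log2 changes were 1.73 for Nfkbie, 0.98 for Tnfaip3, and 0.99 for Nfkbiz, each still past the threshold, and Tnfaip3 no longer stood above Nfkbiz. Among all genes, 7.86% gained on Nfkbia and 38.5% lost. Bcl3 over Nfkbia changed by -0.043, with a 95% interval from -0.62 to 0.53 (adjusted p = 0.905), and its sign turned under some settings. The exact permutation p was 0.0238 (0.0306 adjusted over the 9 ratios) for 7 ratios, 0.190 for Nfkb1 over Rela, and 0.905 for Bcl3 over Nfkbia. Any ratio whose groups do not overlap reaches 0.0238, and the share of all genes that do so was not counted. Before division by another gene, 42.4% of all genes tested did not overlap.

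**Figure D4:**
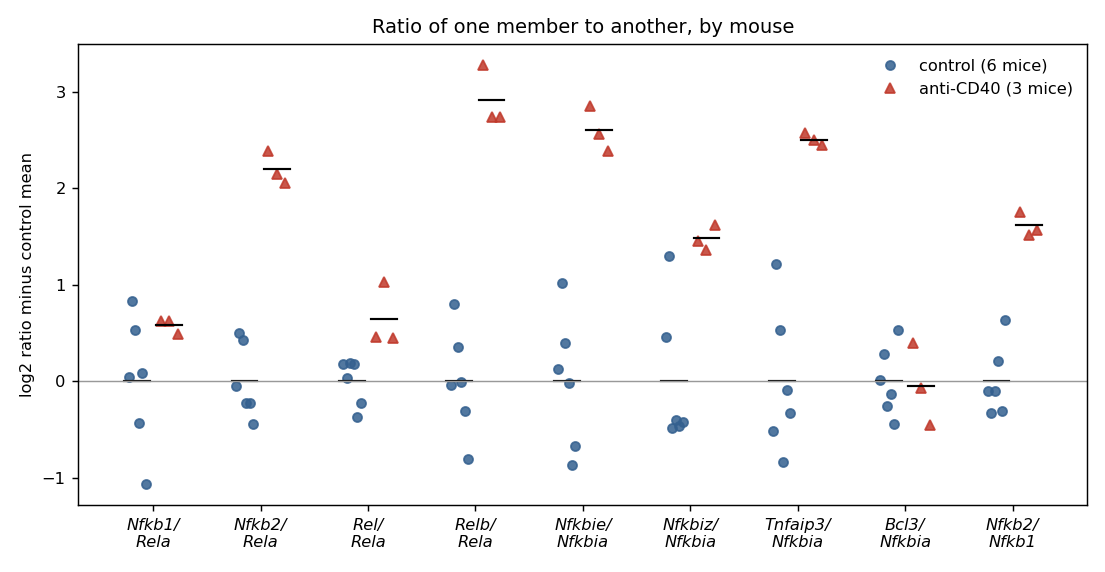
Log2 ratio of 1 member to another in each mouse, minus the mean of the control mice (circles, control; triangles, anti-CD40; bars, means). Triangles lie above all circles in 7 of the 9 ratios and among them in Nfkb1 over Rela and Bcl3 over Nfkbia. The share of all genes with no overlap in such ratios was not counted.

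Other genes of the pathway were read from lists compiled from general knowledge. Of 26 tested genes that carry signals to NF-κB, 10 rose (38.5%, against 23.5% of all genes tested) and 3 fell (11.5%, against 21.7%), with a median log2 fold change of 0.35. The largest rises were in Birc3 (2.23, adjusted p = 7.75e-05), which encodes the ubiquitin ligase cIAP2, Ikbke (1.70, adjusted p = 6.10e-05), which encodes an IKK-related kinase, and Birc2 (1.63, adjusted p = 1.15e-05), which encodes cIAP1. The 3 that fell were Chuk (-0.87, adjusted p = 0.00462), which encodes IKKα, Map3k7 (-0.77, adjusted p = 0.00340), which encodes the kinase TAK1, and Tab1 (-0.62, adjusted p = 0.0169), which encodes a TAK1 partner. Chuk had a mean FPKM of 11.3 after anti-CD40 and 21.3 in control mice, with no overlap. The IKK subunit genes Ikbkb (-0.077, adjusted p = 0.570) and Ikbkg (0.096, adjusted p = 0.552) did not pass the test. Of the non-canonical arm, Map3k14, which encodes NIK, rose by 1.26 (adjusted p = 0.00157) and Traf3, which encodes the adaptor that keeps NIK low, by 1.59 (adjusted p = 7.19e-06). The last 4 genes, and the 5 targets that did not pass the test, were singled out after their values were seen.

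Of 15 other inhibitors of the pathway, 7 rose (46.7%, against 23.5% of all genes tested) and 1 fell (6.67%, against 21.7%), with a median of 0.42. Tnip1, which encodes the A20-binding protein ABIN-1, rose most, with a mean FPKM of 72.6 after anti-CD40 and 8.89 in control mice (log2 fold change 3.00, adjusted p = 1.79e-06). Its relatives Tnip3 (1.74) and Tnip2 (1.06) rose as well, as did the RNase gene Zc3h12a (1.45), the nuclear IκB gene Nfkbid (1.09), N4bp1 (0.75), and Pdlim2 (0.75). Commd1, whose product promotes the removal of p65 from chromatin, fell (-0.93, adjusted p = 0.00179). The IκBβ gene Nfkbib stood at 0.42 (adjusted p = 0.0582) and the deubiquitinase gene Cyld at 0.28 (adjusted p = 0.106), both also singled out afterwards.

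Of 50 tested textbook targets of NF-κB outside the members, 45 rose (90%, against 23.5% of all genes tested) and 0 fell, with a median of 2.68. Saa3 (8.62, adjusted p = 6.29e-07) and Lcn2 (8.38, adjusted p = 5.50e-07) led, followed by the chemokine gene Ccl20, which was listed at the floor of 0.01 in every control mouse and had a mean FPKM of 21.0 after anti-CD40. The 3 smallest rises among those called were Cd86 (0.76), Selp (0.80), and Sod2 (0.80). The 5 that did not pass were Irf1 (0.33), Bcl2l1 (0.41), Xiap (0.15), Ccnd1 (-0.020), and Cflar (-0.46). Another 5 listed targets were too low to test. Of 7 tested genes linked to the non-canonical route in lymphoid tissue, 3 rose (Madcam1, 4.85; Ccl19, 3.90; Tnfsf13b, 1.86) and 2 fell (Cxcl12, -0.95, adjusted p = 2.11e-05; Enpp2, -0.57, adjusted p = 0.0454), and the median was -0.18. Cxcl13 (-0.42, adjusted p = 0.227) and Ccl21a (-0.18, adjusted p = 0.827) did not pass, both named after their values were seen. Of all genes tested 23.5% rose and 21.7% fell, and in 11 of 20 alternatives 1 of the 7 fell in place of 2. All of these lists were chosen with results of these mice known.

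**Figure D5:**
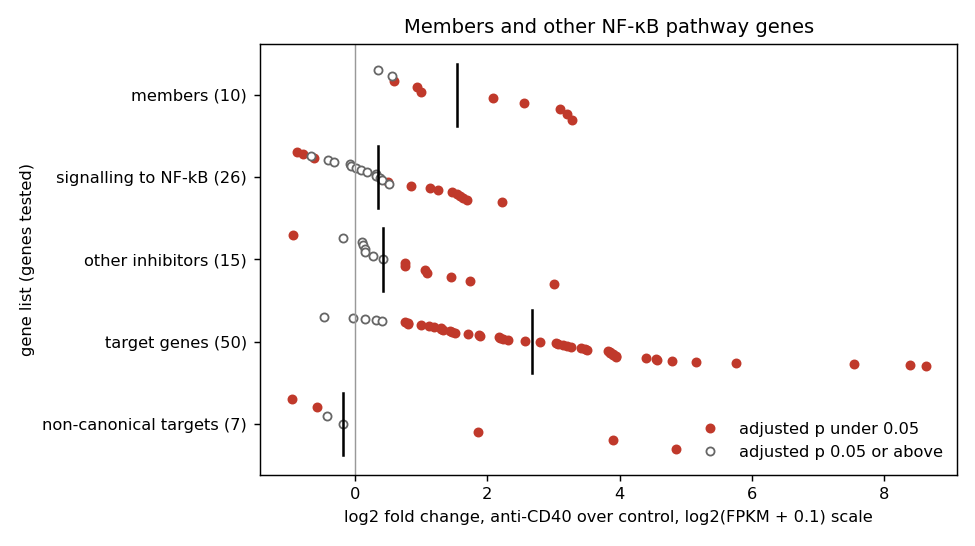
Log2 fold change of each gene tested in the members and in 4 pathway lists (points; filled where the limma adjusted p was under 0.05), with the list median as a vertical bar. The targets reach 8.62 for Saa3 and their median is 2.68, that of the signaling genes is 0.35.

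The tissue label was checked against markers. Hepatocyte genes were above the floor in every mouse, with a summed FPKM of 11763 to 21105 in control and 3930 to 4651 in anti-CD40 mice. Of the 8, 5 fell and 1, Apob (named after its value was seen), rose (0.74, adjusted p = 0.0132). Among all genes tested, 21.7% fell and 23.5% rose, which is the background for each count of markers below as well. Markers of immune cells moved with the members: summed FPKM was at most 8.05 in control and 26.9 to 38.1 in anti-CD40 mice for B cells, 18.1 to 152 and 4204 to 5185 for neutrophils, and 20.5 to 33.1 and 145 to 170 for monocytes and macrophages. Most of the neutrophil sum in anti-CD40 mice was S100a8 (2916 to 3677) and S100a9 (1239 to 1619). Pax5, a defining B cell marker, was at the floor in every mouse but anti-CD40 mouse 2 (0.0901) and was not tested. T cell markers summed to 3.04 to 5.25 in control and 11.3 to 13.0 in anti-CD40 mice. NK cell markers summed to 2.74 to 12.1 and 61.4 to 85.8, with Gzma alone at 57.7 to 79.6 in anti-CD40 mice. Dendritic cell markers summed to at most 3.23 and up to 16.6. Of the 35 tested markers in these 6 immune lists, 31 rose and 1 fell. The summed level of each list was higher in every treated mouse than in every control. The macrophage marker Adgre1 fell (-1.49, adjusted p = 0.00209), and Csf1r stood at -0.62 (adjusted p = 0.0837). Cd209a, a dendritic cell marker, was at the floor in every treated mouse and above it in every control. It was not tested. S100a8, S100a9, Gzma, Adgre1, Csf1r, and Cd209a were singled out after their values were seen. All 5 Kupffer cell markers fell, from a summed FPKM of 253 to 421 to one of 22.2 to 28.0. Control mouse 4 was the highest control in 5 of the 6 immune lists. It also had the highest summed erythroid markers of all mice (26068 FPKM), though none of the 3 tested passed between the groups. Hbb-bs (named after its value was seen) was 25903 in control mouse 4 and 4154 to 7388 in the other controls. The part of immune cells or of blood in the values of the members was not tested. Summed markers of exocrine pancreas reached 725 in anti-CD40 mouse 5, and 8.25 at most in control mice. Without anti-CD40 mouse 5 and control mouse 4, 8 members still rose, with log2 fold changes of 3.50 for Relb and 2.65 for Nfkb2.

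The genes nearest in pattern were named by the mean absolute difference of log2(FPKM + 0.1) over the 9 mice, each gene centered on its own mean. For Nfkb2 these were Pyhin1 (0.106), Ercc6l (0.109), and Incenp (0.115). For Nfkbia they were Smpd5 (0.0620), 4930402H24Rik (0.0741), and Insl3 (0.0826).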

How the data were processed

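RNA from the livers of 9 mice was prepared by the authors with a QuantSeq 3′ FWD kit, sequenced on an Illumina instrument, aligned to mm10 with STAR, and summarised as FPKM with Cufflinks and Cuffdiff. The deposited FPKM values are normalized, with a floor of 0.01. The annotation, and whether strand was used, are not given in the sources used here. Of 24341 genes, 15 with a failed estimate were left out.

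Values were taken as log2(FPKM + 0.1), which understates changes of low genes, for the 13807 genes whose mean FPKM reached 0.1. Groups were compared with limma 3.58.1 (R 4.3.3; eBayes with trend) and Benjamini-Hochberg adjustment at 0.05. Single values were also tested by 2-sided exact permutation. Scripts were tested on simulated data. Promoters came from RefSeq (GRCm38.p6) and gene positions from GENCODE vM21. Figures were drawn with matplotlib 3.10.9.

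The members and lists were chosen with earlier results of these data known. Named beside the members were the 3 called genes with the largest and the 3 with the smallest log2 fold change of each pathway list, every called gene of the other inhibitors, and the 3 genes nearest in pattern to Nfkb2 and to Nfkbia. Alternatives covered the pseudocount, the low-value filter, normalization, the variance model, array weights, and leaving out each mouse. Leaving out anti-CD40 mouse 5 and control mouse 4 together was chosen after seeing the data. The deposited values hold no reads, so no count test was run.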

Additional observations from a re-analysis of the deposited data

Results flagged for a closer look

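Bcl3 FPKM in the control mice stood apart in 1 animal. Control mouse 12 was at 13.9 and the next control at 7.88, a gap of 0.748 of the range of the 6 control mice, above Dixon's 95% limit for a group of 6. Of 23 groups of values checked in this way this was the 1 past the limit, and chance alone gives about 1.15. Control mouse 12 was also the highest control for Rela, and its part in these values was not tested further than by leaving it out.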

How the results depend on the processing

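Each result was recomputed under up to 20 alternatives, and of 378 such values for single genes and ratios 342 kept their direction and their side of the threshold, 24 lost a call, 7 gained a call, and 5 turned direction. The number of members that rose was 7 to 10 and 0 fell in every alternative. With the 3 Saa genes left out the median of all genes moved to 0.35, and 5592 genes rose and 1649 fell (2482 to 3560 and 2332 to 3270 with 1 mouse left out). In that setting 16 signaling genes and 12 other inhibitors rose, and 1 signaling gene fell. Leaving out 1 mouse gave 8 to 11 signaling genes higher and 2 to 5 lower (5 without control mouse 4) and 5 to 8 other inhibitors higher. With quantile normalization 5 signaling genes and 2 other inhibitors fell. Of the non-canonical targets 1 fell, in place of 2, without the low-value filter, with quantile normalization, without the Saa genes, without the trend, with anti-CD40 mouse 5 and control mouse 4 left out, and in 6 of the 9 fits that left out 1 mouse (range 1 to 2). The ratio of Bcl3 to Nfkbia turned from -0.043 to 0.0201 with array weights and 0.028 with both mice left out, and ran from -0.26 to 0.16 with 1 mouse left out. The cause of these moves was not tested. No paired analysis was possible because the groups share no mouse numbers and the labels do not say whether the numbers mark blocks. The control levels of Tnfaip3 and Rel rest on few reads, and for 6 members depth is unknown.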
